A study of Mus musculus with 32 samples.

Results

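Sciatic nerves of C3-PMP22 Sipa1l2-/- mice were compared with sciatic nerves of Sipa1l2-/- mice across all measured genes. Samples were chosen by their titles, and the comparison used 17 of the 32 libraries of the series, 8 from C3-PMP22 Sipa1l2-/- nerves (called double mutants here) and 9 from Sipa1l2-/- nerves. The double mutants were labelled as 5 females and 3 males, and the Sipa1l2-/- mice as 4 females and 5 males. All mice were aged 6 months, and both groups carried the Sipa1l2-/- genotype, so the groups differed by the C3-PMP22 transgene on a background labelled as lacking Sipa1l2. The other libraries came from C3-PMP22 nerves (n = 8) and wild-type (WT) nerves (n = 7), which entered the fit and gave the transgene comparison on the other background. The series asked whether SIPA1L2 modifies Charcot-Marie-Tooth disease type 1A (CMT1A).

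CMT1A is a demyelinating neuropathy caused by an extra copy of PMP22, which encodes a membrane protein of compact peripheral myelin. C3-PMP22 mice carry human PMP22 and serve as a model of the disease. Myelin of the sciatic nerve is made by Schwann cells, which wrap axons under the control of the transcription factors Sox10 and Egr2 and use large amounts of cholesterol to do so. Schwann cells that leave the myelinating state turn on a repair programme that includes Jun, Ngfr and Sox2, and macrophages clear myelin debris. Sipa1l2 belongs to the SIPA1 family of proteins that switch off Rap GTPases. A whole nerve also holds axons, fibroblasts, perineurial cells, vessels, resident macrophages and varying amounts of adjoining muscle and fat. In such tissue, fewer cells of a type and less RNA per cell cannot be told apart.

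Each library of the compared groups held 11030976 to 15769062 expected counts, estimated read counts per gene, with a median of 13520309 in double mutants and 13253239 in Sipa1l2-/- nerves. After a filter on low counts, 15403 of 45706 genes were tested. Levels are given as CPM, counts scaled to library size, after scaling for library composition, and differences as log2 fold changes of the double mutant over Sipa1l2-/-, from a fit on all 32 libraries that included labelled sex. The half-width of the 95% interval of a log2 fold change had a median of 0.30 over all tested genes. A gene was called when its Benjamini-Hochberg adjusted p from edgeR's quasi-likelihood test was under 0.05.

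The column headers number the animals in a plain series or in a series with a leading G. The 5 female double mutants all had plain numbers and the 3 males all had G numbers, so sex and series cannot be told apart within that genotype. The Sipa1l2-/- libraries held 7 of the plain series (3 females, 4 males) and 2 of the G series (1 female, 1 male). The series is only a numbering of animals and no source says what it stands for. Within the plain series, most double mutants shared the same header number before the hyphen, whereas most Sipa1l2-/- libraries carried other numbers. No source says what this number stands for either. Its part in the differences within the plain series and within females was not tested. In C3-PMP22 libraries 7 and 8, labelled female, Xist was under 1 CPM and the Y-linked gene Ddx3y was at 147 and 146 CPM, against their sex labels. Both libraries entered only the shared fit and the comparison with WT, and without them 129 genes were called between double mutant and Sipa1l2-/- nerves. Muscle content varied within both groups. Acta1, the actin of skeletal muscle, ranged from 5.89 to 5951 CPM in double mutants and from 0.575 to 8967 CPM in Sipa1l2-/- nerves. The fat hormone gene Adipoq ranged from 280.8 to 1033 CPM in double mutants and from 264.5 to 1481 CPM in Sipa1l2-/- nerves.

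Sipa1l2 itself, on chromosome 8 (GRCm38, 125418063 to 125569808), had 43.6 to 149 CPM in double mutants, with a median of 71.7, against 55.0 to 138 CPM in Sipa1l2-/- nerves, with a median of 93.8. In the other groups it had 57.7 to 133 CPM in C3-PMP22 nerves, with a mean of 90.1, against 65.2 to 122 CPM in WT nerves, with a mean of 82.9. Libraries labelled Sipa1l2-/- were therefore not lower in Sipa1l2 counts than the others, with means of 86.0 CPM in double mutants and 88.9 CPM in Sipa1l2-/- nerves, so the counts do not bear out the label, and the genotype is given here as labelled. The fold change was -0.04 on the log2 scale (SE 0.22, adjusted p = 0.999), and counts over a whole gene do not show which part of it was transcribed. The mouse Pmp22 gene, on chromosome 11, had 831 to 3932 CPM in double mutants, with a median of 1549, against 2055 to 5121 CPM in Sipa1l2-/- nerves, with a median of 3469. The difference was -0.64 (SE 0.28, adjusted p = 0.448), so it was not called over the pooled libraries. The deposited table holds mouse genes, and the human transgene was not measured here.

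Of the 15403 genes tested, 111 were called, which is 0.721%. The 57 called higher made up 0.37% of the genes tested and the 54 called lower 0.351%. The counts of called list members below are to be read beside these shares. At least 2-fold differences were found in 84 of the called genes (0.545% of the genes tested), 46 higher and 38 lower. At an unadjusted p under 0.05 there were 1338 genes. In 23 of the 111 called genes no double mutant library overlapped any Sipa1l2-/- library, 13 higher and 10 lower, and 30 of all 15403 genes (0.195%) were separated in this way. The median log2 fold change of all tested genes was -0.015. With libraries scaled by total counts alone, 35 genes were called higher and 47 lower.

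**Figure D1:**
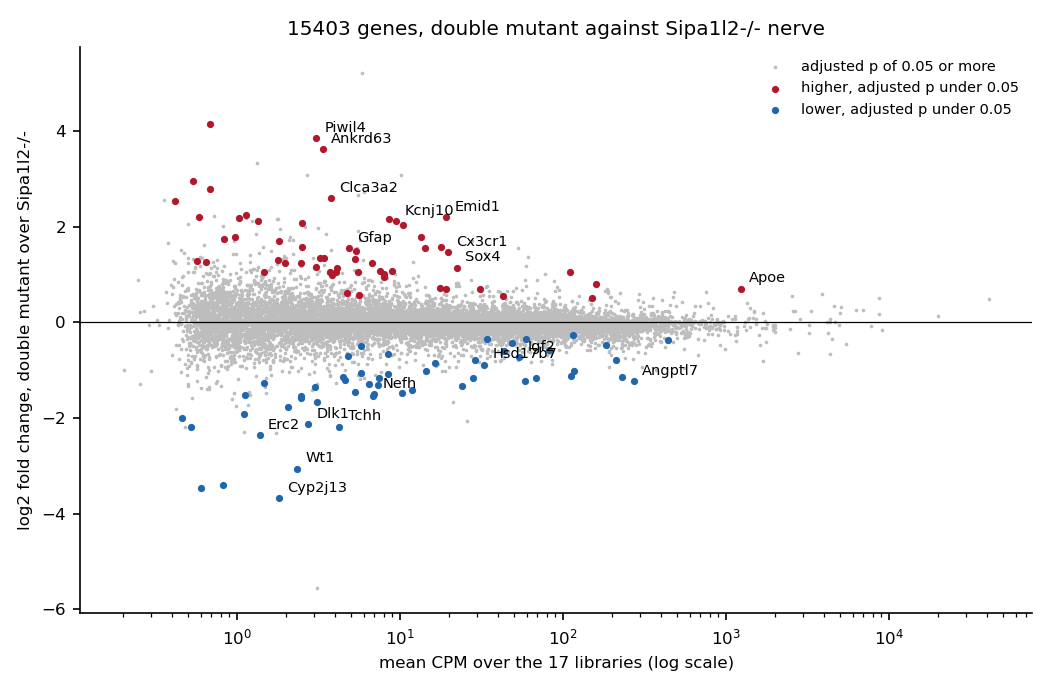
Log2 fold change of the double mutant over Sipa1l2-/- for each of the 15403 tested genes, against the mean level on a log axis. Coloured points are the 57 genes called higher and the 54 called lower, and the names mark some of the called genes described in the text.

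The genes that led the increase were expressed at low levels in Sipa1l2-/- nerves. Piwil4, which encodes a PIWI protein that binds piRNAs in the germ line, lies on chromosome 9 and Ankrd63, an ankyrin repeat protein, on chromosome 2. Sox4, an HMG-box transcription factor of immature cells, lies on chromosome 13. Hsd17b7, one of the called genes of cholesterol synthesis, lies on chromosome 1 and encodes a reductase of the sterol pathway. The start regions of these 4 genes, from 250 bases before to 50 bases after the RefSeq transcription start (GRCm38.p6, minus strand, 5′ to 3′), are shown because their values carry the increases and the decrease described below. They are chr9:14740623-14740922 for Piwil4 (the first of 2 starts listed), chr2:118703914-118704213 for Ankrd63, chr13:28953650-28953949 for Sox4 and chr1:169969156-169969455 for Hsd17b7. Capitals mark the NF-Y box CCAAT on either strand, a motif of many promoters including those of sterol genes.
Piwil4: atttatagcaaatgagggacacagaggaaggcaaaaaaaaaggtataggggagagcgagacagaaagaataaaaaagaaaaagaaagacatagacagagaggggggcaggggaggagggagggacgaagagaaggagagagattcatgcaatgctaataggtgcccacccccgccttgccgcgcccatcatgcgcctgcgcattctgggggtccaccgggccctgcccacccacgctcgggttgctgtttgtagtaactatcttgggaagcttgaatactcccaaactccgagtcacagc
Ankrd63: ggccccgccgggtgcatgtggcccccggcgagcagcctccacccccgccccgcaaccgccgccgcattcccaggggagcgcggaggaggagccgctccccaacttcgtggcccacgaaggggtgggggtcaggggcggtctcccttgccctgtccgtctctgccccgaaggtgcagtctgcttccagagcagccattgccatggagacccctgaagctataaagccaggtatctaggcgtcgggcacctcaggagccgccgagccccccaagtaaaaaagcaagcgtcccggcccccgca
Sox4: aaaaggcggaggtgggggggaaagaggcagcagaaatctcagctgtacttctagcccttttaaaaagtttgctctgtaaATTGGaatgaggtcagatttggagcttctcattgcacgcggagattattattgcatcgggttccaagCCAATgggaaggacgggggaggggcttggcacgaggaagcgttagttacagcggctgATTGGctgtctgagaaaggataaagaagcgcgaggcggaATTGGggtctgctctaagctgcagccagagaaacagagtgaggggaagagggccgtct
Hsd17b7: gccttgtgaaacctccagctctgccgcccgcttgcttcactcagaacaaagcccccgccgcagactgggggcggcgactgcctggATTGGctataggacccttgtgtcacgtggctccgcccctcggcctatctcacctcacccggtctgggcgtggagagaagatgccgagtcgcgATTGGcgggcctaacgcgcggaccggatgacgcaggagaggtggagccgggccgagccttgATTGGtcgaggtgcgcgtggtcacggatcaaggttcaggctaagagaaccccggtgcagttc
The motif was found 4 times in the Sox4 region and 3 times in that of Hsd17b7, and these letters were not in the windows of Piwil4 and Ankrd63. Of 32851 promoters in the RefSeq table, 37.4% held the box, and so did 33 of the 108 promoters that matched 82 of the 111 called genes. The sterol response element, searched as TCACNCCAC on both strands, was in 1.24% of all promoters and in 2 of the 108. The EGR element GCGNGGGCG was in 5.55% of all promoters and in 9 of the 108. The cyclic AMP response element TGACGTCA was in 1.79% of all promoters and in 0 of the 108. No motif searched contains another, and a match describes the letters of the window only.

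Piwil4 had 1.41 to 18.9 CPM in double mutants, with a median of 3.17, against 0 to 0.718 CPM in Sipa1l2-/- nerves, with a median of 0.471. All 8 double mutant libraries stood above all 9 others, and the 3 highest were the G-series males at 8.30, 9.31 and 18.9 CPM. The log2 fold change was 3.86 (SE 0.46, adjusted p = 1.72e-05). Ankrd63 had 4.31 to 8.16 CPM in double mutants, with a median of 7.13, against 0 to 1.18 CPM in Sipa1l2-/- nerves, with a median of 0.515. Its log2 fold change was 3.62 (SE 0.37, adjusted p = 1.16e-06), and its double mutant values varied less from library to library than those of Piwil4. For Ankrd63, as for Piwil4, the groups did not overlap.

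Other genes among the largest increases encode a channel or a receptor, although the list of ion channels and transporters of glia as a whole had a median of 0.04. Kcnj10, an inward rectifier potassium channel of glia, had 5.47 to 38.5 CPM in double mutants, with a median of 12.1, against 2.23 to 6.54 CPM in Sipa1l2-/- nerves, with a median of 3.11. Its log2 fold change was 2.12 (SE 0.34, adjusted p = 0.000562), and the lowest double mutant library fell inside the range of the Sipa1l2-/- nerves. It was the 1 called gene of 13 tested in the list of ion channels and transporters of glia. Otop1, a proton channel, had 6.01 to 38.9 CPM in double mutants, with a median of 11.1, against 2.10 to 8.02 CPM in Sipa1l2-/- nerves, with a median of 3.88 (log2 fold change 2.04, SE 0.32, adjusted p = 0.000492). Chrm1, the muscarinic acetylcholine receptor M1, rose by 2.18 on the log2 scale (SE 0.37) from low levels, with a median of 1.74 CPM in double mutants and 0.328 CPM in Sipa1l2-/- nerves. Its groups overlapped, at 0.283 to 3.53 CPM in double mutants and 0.120 to 0.849 CPM in Sipa1l2-/- nerves. Ppp2r2c, a regulatory subunit of protein phosphatase 2A, had a median of 7.93 CPM in double mutants and 2.40 CPM in Sipa1l2-/- nerves and rose by 2.15 (SE 0.36). The 3 G-series males had the highest values of Otop1 (19.9 to 38.9 CPM) and Ppp2r2c (26.2 to 30.5 CPM). Within the plain series Otop1 stood at 1.32 (adjusted p = 0.0651 by edgeR's quasi-likelihood test), Ppp2r2c at 1.21 (0.0895) and Chrm1 at 1.66 (0.0517). Clca3a2, of the calcium-activated chloride channel regulator family, had 1.50 to 22.1 CPM in double mutants, with a median of 5.48. In Sipa1l2-/- nerves it had 0.0986 to 2.44 CPM, with a median of 0.797. The groups overlapped, and the log2 fold change was 2.60 (SE 0.44, adjusted p = 0.000978). It was 3.19 in the plain series (adjusted p = 0.00271) and 1.50 in the G series (0.7). In females it was 2.53 (0.0341) and in males 2.67 (0.0814). Clca3a2 has close paralogs, between which expected counts may be split. Pgr, the progesterone receptor, had a median of 1.15 CPM in double mutants and 0.217 CPM in Sipa1l2-/- nerves (log2 fold change 2.23, SE 0.53, adjusted p = 0.0322). The call of Pgr was lost when double mutant library 3 or 5 or Sipa1l2-/- library 1, 2, 3, 7, 8 or 9 was left out. Over the 17 omissions of 1 library its log2 fold change was 1.54 to 2.52, with an adjusted p of up to 0.127.

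Further increases were in single genes with various roles. Emid1, an extracellular matrix protein with an EMI domain, had 10.04 to 80.5 CPM in double mutants, with a median of 22.7, against 3.87 to 11.4 CPM in Sipa1l2-/- nerves, with a median of 7.10. The 3 G-series males had the highest values, at 44.7, 55.9 and 80.5 CPM, and the log2 fold change over all libraries was 2.20 (SE 0.34, adjusted p = 0.000382). It was the 1 called gene of 18 in the basal lamina and matrix list, which had a median of -0.06 and whose lowest member was the collagen gene Col15a1 at -0.51 (adjusted p = 0.341). Epyc, a small leucine-rich proteoglycan, had 8.03 to 30.6 CPM in double mutants, with a median of 22.4, against 2.27 to 9.91 CPM in Sipa1l2-/- nerves, with a median of 6.51 (log2 fold change 1.78, SE 0.27, adjusted p = 0.000314). Sema4f, a membrane semaphorin, had 2.62 to 7.88 CPM in double mutants, against 0.441 to 1.87 CPM in Sipa1l2-/- nerves, with no overlap between the groups (log2 fold change 2.07, SE 0.31, adjusted p = 0.000298). The cadherin gene Cdh6 had 0.778 to 5.55 CPM in double mutants, against 0.217 to 0.862 CPM in Sipa1l2-/- nerves, and rose by 2.11 (SE 0.50, adjusted p = 0.0322). Its highest values were those of the 3 G-series males, at 3.31 to 5.55 CPM, and within the plain series it stood at 1.02 (SE 0.62, adjusted p = 0.508). Without double mutant library 6, 7 or 8 or Sipa1l2-/- library 1, 2, 3, 6, 7 or 9 the call of Cdh6 was lost, at log2 fold changes of no less than 1.79 and an adjusted p of up to 0.0856. Klk8, a secreted serine protease of the kallikrein family, had 2.41 to 6.403 CPM in double mutants and 0.882 to 1.77 CPM in Sipa1l2-/- nerves, again without overlap. Rab15, a small GTPase of endosomal traffic, had 5.09 to 10.9 CPM in double mutants and 1.28 to 4.64 CPM in Sipa1l2-/- nerves, also without overlap. Their log2 fold changes were 1.57 (SE 0.23) for Klk8 and 1.33 (SE 0.20) for Rab15, each with an adjusted p of 0.000271.

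**Figure D2:**
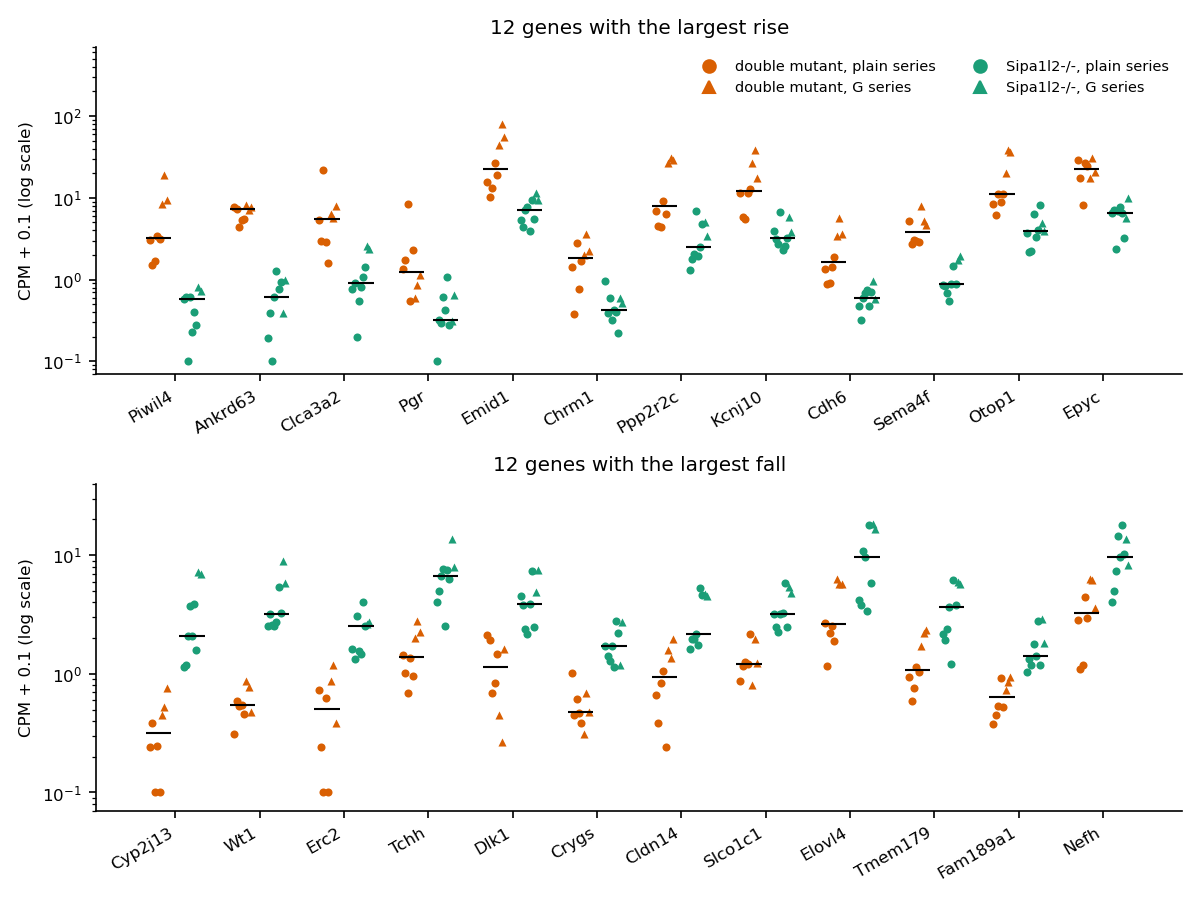
CPM on a log axis in each library for the 12 genes with the largest called increases and the 12 with the largest called decreases among genes that averaged 1 CPM or more. Points are libraries of double mutants (left of each pair) and of Sipa1l2-/- nerves (right), triangles mark the G series and bars the medians, and the small offset named on the axis keeps values of 0 in view. In Piwil4, Emid1, Kcnj10, Otop1, Ppp2r2c and Cdh6 the 3 triangles of the double mutants are the highest points.

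Among genes of repair and immature Schwann cells, 3 of 19 tested rose and none fell. Sox4 had 22.6 to 39.0 CPM in double mutants, with a median of 30.4, against 10.9 to 16.96 CPM in Sipa1l2-/- nerves, with a median of 14.1. The groups did not overlap, and the log2 fold change was 1.14 (SE 0.14, adjusted p = 1.72e-05). Btc, which encodes the ErbB ligand betacellulin, had 6.43 to 15.2 CPM in double mutants, with a median of 8.15, against 1.42 to 12.4 CPM in Sipa1l2-/- nerves, with a median of 3.40 (log2 fold change 1.25, SE 0.28, adjusted p = 0.0232). Id2, an inhibitor of basic helix-loop-helix factors, had a median of 22.2 CPM in double mutants and 12.8 CPM in Sipa1l2-/- nerves (log2 fold change 0.71, SE 0.16, adjusted p = 0.0258). With libraries scaled by total counts alone, 1 of the 19 was called, and Btc (adjusted p = 0.0663) and Id2 (adjusted p = 0.154) were not. Btc lost its call also without the sex term (log2 fold change 0.98, adjusted p = 0.272) and without Sipa1l2-/- library 6 (adjusted p = 0.0621). Id2 lost it without double mutant library 3, 6 or 7 or Sipa1l2-/- library 2, 6 or 9, with a log2 fold change of 0.65 or more and an adjusted p of up to 0.0705. The neurotrophic factor gene Gdnf, the member with the highest log2 fold change, stood at 1.61 (SE 0.41, adjusted p = 0.0575), and the cadherin gene Cdh2, the lowest, at -0.72 (SE 0.29, adjusted p = 0.389). The median over the list was 0.22. Jun, a transcription factor of the repair state, had 67.2 to 109 CPM in double mutants, with a median of 80.3, against 48.5 to 83.7 CPM in Sipa1l2-/- nerves, with a median of 65.3. The log2 fold change of Jun was 0.33 (SE 0.13, adjusted p = 0.376). The neurotrophin receptor gene Ngfr stood at 0.42 (SE 0.23, adjusted p = 0.648).

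Gfap, the intermediate filament of non-myelinating Schwann cells, had 3.50 to 15.8 CPM in double mutants, with a median of 6.22, against 0.849 to 5.24 CPM in Sipa1l2-/- nerves, with a median of 2.62. It rose by 1.55 on the log2 scale (SE 0.28, adjusted p = 0.00283) and was the 1 called gene of 16 in the non-myelinating Schwann cell list. The GDNF family receptor gene Gfra3 was lowest in that list, at -0.36 (SE 0.41, adjusted p = 0.958), and the list median was 0.09.

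Macrophage genes rose in 2 of 24 cases, beside 0.37% of all tested genes, and none fell. Cx3cr1, the fractalkine receptor of resident macrophages and microglia, had 21.3 to 41.6 CPM in double mutants, with a median of 28.2, against 7.198 to 17.4 CPM in Sipa1l2-/- nerves, with a median of 9.70. The groups did not overlap, and the log2 fold change was 1.47 (SE 0.24, adjusted p = 0.000562). Trem2, a lipid-sensing receptor of macrophages and microglia, had 8.42 to 16.9 CPM in double mutants, with a median of 12.6, against 3.97 to 8.11 CPM in Sipa1l2-/- nerves, with a median of 5.85. It did not overlap either, and rose by 1.07 (SE 0.20, adjusted p = 0.00283). The other members were not called, and the lowest was Spp1, osteopontin, at -0.35 (SE 0.20, adjusted p = 0.699). All 24 listed genes passed the low-count filter, their median was 0.25 and 2 of the 24 values were below 0. The list median was 0.55 in the plain series and 0.58 in females, each with 1 value below 0. It was -0.02 in the G series with 12 values below 0, and -0.19 in males with 16 below 0. The summed level of the list was 1572 to 3097 CPM in double mutants, and 1443 to 2462 CPM in Sipa1l2-/- nerves. The general macrophage genes Adgre1 (log2 fold change 0.17), Csf1r (0.11) and Cd68 (0.09) each had an adjusted p of 0.999. The part of cell number in the increase of Cx3cr1 and Trem2 was not tested.

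Of 16 chemokine and cytokine genes tested, 1 rose. Cxcl10, an interferon-inducible chemokine, had a median of 4.21 CPM in double mutants and 1.498 CPM in Sipa1l2-/- nerves (log2 fold change 1.34, SE 0.32, adjusted p = 0.0322). Its exons overlap those of Art3 on the opposite strand, whose mean level was 180 CPM, and no source used here states whether counting used strand. The call of Cxcl10 was lost without double mutant library 1, 2 or 6 or Sipa1l2-/- library 1, 2, 3, 6 or 7, at log2 fold changes of 1.15 or more and an adjusted p of up to 0.1. None of the 16 interferon-stimulated genes and none of the 16 complement genes were called, and their medians were -0.12 and 0.13.

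The largest decreases were in genes at a few CPM in Sipa1l2-/- nerves. Wt1, a zinc finger transcription factor named after Wilms tumour, had 0.210 to 0.774 CPM in double mutants, with a median of 0.442, against 2.43 to 8.77 CPM in Sipa1l2-/- nerves, with a median of 3.12. All double mutant libraries stood below all Sipa1l2-/- libraries, and the log2 fold change was -3.06 (SE 0.41, adjusted p = 9.34e-05). Cyp2j13, a cytochrome P450 of a family with close paralogs, had 0 to 0.658 CPM in double mutants, with a median of 0.216, against 1.04 to 7.11 CPM in Sipa1l2-/- nerves, with a median of 1.97 (log2 fold change -3.68, SE 0.54, adjusted p = 0.000271). Its counts may be split between those paralogs. Erc2, a scaffold protein of the presynaptic active zone, had 0 to 1.09 CPM in double mutants and 1.23 to 3.97 CPM in Sipa1l2-/- nerves, with no overlap (log2 fold change -2.35, SE 0.47, adjusted p = 0.00738). Tchh, which encodes trichohyalin of the hair follicle, had 0.584 to 2.69 CPM in double mutants, with a median of 1.30, against 2.43 to 13.7 CPM in Sipa1l2-/- nerves, with a median of 6.61. The highest double mutant library slightly overlapped the lowest Sipa1l2-/- library, and the log2 fold change was -2.18 (SE 0.30, adjusted p = 0.000141). Malrd1, which encodes a protein with MAM and LDL receptor class A domains, and the forkhead gene Foxi2 fell by 3.46 (SE 0.51) and 3.40 (SE 0.50), each with an adjusted p of 0.000271. Both were near the detection limit in double mutants, with medians of 0.0707 CPM for Malrd1 and 0.0842 CPM for Foxi2, against medians of 0.882 CPM for Malrd1 and 1.40 CPM for Foxi2 in Sipa1l2-/- nerves.

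The imprinted growth genes had 2 of 14 members that fell. Dlk1, a membrane protein of the Notch ligand family that is imprinted and paternally expressed, had 0.168 to 2.03 CPM in double mutants, with a median of 1.05, against 2.06 to 7.35 CPM in Sipa1l2-/- nerves, with a median of 3.80. The log2 fold change was -2.13 (SE 0.33, adjusted p = 0.000492). Igf2, the insulin-like growth factor made by the paternal allele, had 29.2 to 57.5 CPM in double mutants, with a median of 43.1, against 35.1 to 102 CPM in Sipa1l2-/- nerves, with a median of 57.2 (log2 fold change -0.73, SE 0.12, adjusted p = 0.000535). Its groups overlapped over most of the double mutant range, and without the sex term it was not called (log2 fold change -0.61, adjusted p = 0.227). The list median was -0.19, and the highest member was the zinc finger gene Plagl1 at 0.15 (adjusted p = 0.999).

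The remaining genes among the 12 largest decreases had various roles. Slco1c1, an organic anion and thyroid hormone transporter of barrier endothelium, had 0.704 to 2.07 CPM in double mutants, against 2.17 to 5.77 CPM in Sipa1l2-/- nerves, with no overlap (log2 fold change -1.58, SE 0.24, adjusted p = 0.000349). The tight junction gene Cldn14 had a median of 0.848 CPM in double mutants and 2.06 CPM in Sipa1l2-/- nerves, and Crygs, a crystallin, 0.374 CPM in double mutants and 1.60 CPM in Sipa1l2-/- nerves. Their log2 fold changes were -1.77 (SE 0.38) for Cldn14 and -1.91 (SE 0.31) for Crygs. Elovl4, an elongase of very long chain fatty acids, had 1.06 to 6.26 CPM in double mutants, with a median of 2.52, against 3.28 to 18.3 CPM in Sipa1l2-/- nerves, with a median of 9.48. The log2 fold change of Elovl4 was -1.55 (SE 0.38, adjusted p = 0.0483). Its call was lost without double mutant library 1, 2, 3, 4 or 5 or Sipa1l2-/- library 3, 4, 6, 8 or 9, at log2 fold changes from -1.71 to -1.37 and an adjusted p of up to 0.124. Tmem179 and Fam189a1, both encoding membrane proteins, fell by 1.54 (SE 0.33) and 1.52 (SE 0.32). None of the 18 fatty acid synthesis genes and none of the 18 endothelial and pericyte genes were called, though 16 of the 18 vessel genes had values below 0, with a median of -0.19.

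Axonal and neuronal genes fell in 2 of 11 cases, and 10 of the 11 values were below 0, with a median of -0.64. The list holds genes of neurons, whose axons run in the nerve and whose cell bodies lie outside it. Counts of a whole nerve do not show which cells held these transcripts. Nefh, the heavy neurofilament subunit, had 0.990 to 6.26 CPM in double mutants, with a median of 3.17, against 3.96 to 17.97 CPM in Sipa1l2-/- nerves, with a median of 9.64. It fell by 1.50 on the log2 scale (SE 0.34, adjusted p = 0.0219), and its call was lost without Sipa1l2-/- library 6 (log2 fold change -1.25, adjusted p = 0.0804). Nefm, the medium subunit, had 0.803 to 7.43 CPM in double mutants, with a median of 3.05, against 4.28 to 14.3 CPM in Sipa1l2-/- nerves, with a median of 9.27. Its log2 fold change was -1.29 (SE 0.32, adjusted p = 0.0483). Its call was kept in only 5 of the 17 omissions of 1 library, those of double mutant library 7 or 8 and of Sipa1l2-/- library 2, 3 or 5, and its log2 fold change ran from -1.46 to -1.14 with an adjusted p of up to 0.116. The exons of Nefm overlap those of Nefl, the light subunit, on the opposite strand. Tubb3, the neuronal tubulin, went the other way at 1.56 (SE 0.40, adjusted p = 0.0551). The summed level of the list was 157 to 360 CPM in double mutants and 214 to 574 CPM in Sipa1l2-/- nerves.

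Among the genes of cholesterol biosynthesis, 3 of 25 were called lower and none higher. Hsd17b7, whose start region is printed above, had 13.8 to 33.9 CPM in double mutants, with a median of 21.4, against 29.3 to 59.5 CPM in Sipa1l2-/- nerves, with a median of 40.1 (log2 fold change -0.89, SE 0.19, adjusted p = 0.0135). Stard4, a carrier of cholesterol within the cell, had 24.3 to 47.7 CPM in double mutants, with a median of 34.4, against 37.4 to 69.8 CPM in Sipa1l2-/- nerves, with a median of 53.5. Its log2 fold change was -0.60 (SE 0.14, adjusted p = 0.0322). Its call was lost without double mutant library 1, 2, 3 or 5 or Sipa1l2-/- library 1, 6, 8 or 9, at log2 fold changes from -0.66 to -0.55 and an adjusted p of up to 0.0831. Values were below 0 in 20 of the 25 genes, with a median of -0.25. The highest was the sterol reductase gene Tm7sf2 at 0.18 (SE 0.18, adjusted p = 0.923).

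The compact myelin list, which also holds Drp2 of the Schwann cell surface, had 0 of 22 genes called over the pooled libraries. Of its log2 fold changes, 19 of 22 were below 0, and their median was -0.26. Mbp, myelin basic protein, had 1887 to 8970 CPM in double mutants, with a median of 3701, against 3848 to 9864 CPM in Sipa1l2-/- nerves, with a median of 6006. The log2 fold change of Mbp was -0.45 (SE 0.27, adjusted p = 0.726). The lowest member was Drp2, a dystrophin-related protein of the Schwann cell surface, at -0.81 (SE 0.29, adjusted p = 0.297), and the highest Fxyd3, a regulator of the sodium pump, at 0.56 (SE 0.28, adjusted p = 0.57). The summed level of the list was 6176 to 30150 CPM in double mutants and 13580 to 35140 CPM in Sipa1l2-/- nerves. The myelination transcription factors showed 0 calls of 12, with Egr2 at -0.24 (SE 0.33, adjusted p = 0.9752) and Sox10 at -0.18 (SE 0.31, adjusted p = 0.999). None of the 22 inherited neuropathy genes were called, and Nefl was the lowest of them at -1.10 (SE 0.29, adjusted p = 0.0673).

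No gene was called in the lists of sphingolipid and galactolipid enzymes (12 tested), neuregulin and GPCR signalling of myelination (13), fibroblasts (15), perineurial cells (11) and cell cycle (16). The same held for ER stress (16), heat shock and proteasome (14), immediate early genes (14), mitochondrially encoded genes (13) and the SIPA1 family with Rap GTPases (14). The cell cycle list had a median of 0.41, with 13 genes above 0 and 3 below. All 13 mitochondrially encoded genes were above 0, with a median of 0.235. Medians of the other lists without a call named so far in this paragraph ran from -0.05 to 0.10. Markers of cells that adjoin or enter a nerve gave no call either. The skeletal muscle list (15 tested) had a median of -0.09, which was 0.04 with total-count scaling and 0.67 with the series as a term, when all 15 were above 0. Its sums ran from 28.9 to 50100 CPM in double mutants, with a median of 33501, and from 27.9 to 91480 CPM in Sipa1l2-/- nerves, with a median of 2895. The adipocyte list (14 tested) had a median of 0.03, and its sums ran from 6530 to 21310 CPM in double mutants and from 6409 to 27350 CPM in Sipa1l2-/- nerves. The erythrocyte list (6 tested) had a median of -0.95, with sums of 510 to 1335 CPM in double mutants and 283 to 3865 CPM in Sipa1l2-/- nerves. The lymphocyte list (7 tested) had a median of 0.35, with sums of 35.8 to 160.4 CPM in double mutants and 42.6 to 147 CPM in Sipa1l2-/- nerves. With the muscle level as a further term in the fit 131 genes were called, and with the adipocyte level 223 (92 higher, 131 lower), all 111 with the same sign.

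**Figure D3:**
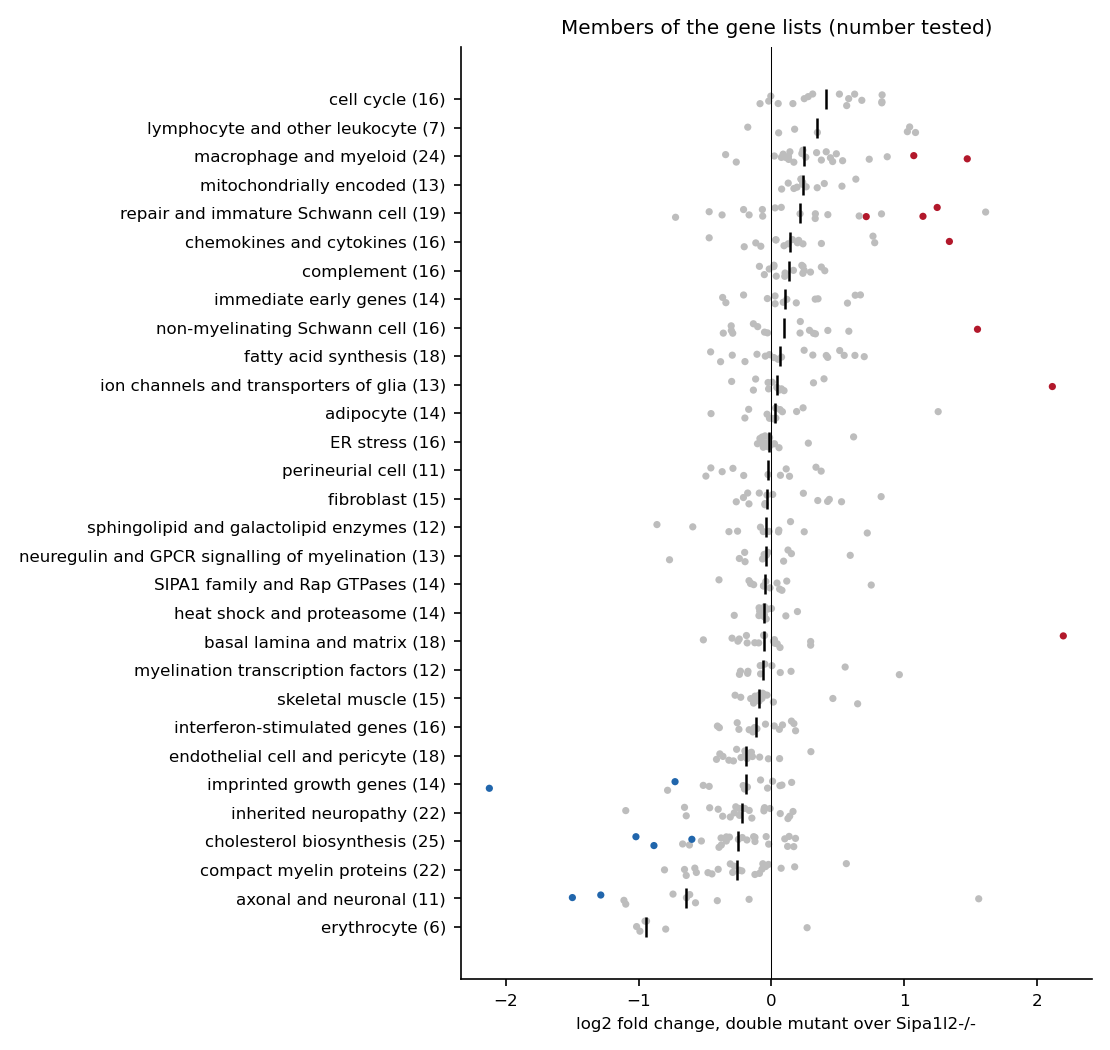
Log2 fold changes of the double mutant over Sipa1l2-/- for the tested members of 30 gene lists, ordered by their median (black bar). Coloured points are called genes, and the vertical scatter within a row only separates points. Most lists hold no called gene, and calls stand among members that were not called.

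The transgene effect on the background labelled Sipa1l2-/- was set beside that in C3-PMP22 against WT, which shares no library with it. That comparison called 106 genes (0.688%), of which 58 were higher and 48 lower. Both comparisons called 48 genes, 43.2% of the 111 called here and 45.3% of the 106, with 29 higher and 19 lower. Of the 111 genes, 110 had the same sign in both, against 56.6% of all tested genes, and the other gene, the organic anion transporter gene Slco3a1, stood at -0.44 here and 0.000579 there. The median size of the log2 fold change of the 111 was 1.27 here, where they were chosen, and 1.01 in C3-PMP22 against WT. Across the 111 genes the 2 sets of fold changes had a Pearson r of 0.96, and across all 15403 tested genes an r of 0.27. Genes are not independent replicates, and these values describe the same fit.

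The shared changes included the largest ones. Piwil4 had a log2 fold change of 3.86 here and 3.73 (SE 0.49) in C3-PMP22 against WT, and Ankrd63 3.62 here and 3.18 (SE 0.39) there. Emid1 stood at 2.20 here and 2.34 there, Kcnj10 at 2.12 and 2.32, and Cx3cr1 at 1.47 and 1.58. For Wt1 the values were -3.06 here and -2.46 there, and for Malrd1 -3.46 and -3.61. Each of these was called in both. Of the genes named above, the call was made here but not in C3-PMP22 against WT for Pgr (2.23 here, 0.99 there), Id2 (0.71 and 0.44), Cxcl10 (1.34 and 0.78), Hsd17b7 (-0.89 and -0.70) and Nefm (-1.29 and -0.46), among others. A call in 1 of 2 comparisons does not show that they differ. In the other direction, the cholesterol list held 3 genes called lower here and 8 in C3-PMP22 against WT.

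Whether the transgene effect differed with the labelled Sipa1l2 genotype was tested directly as an interaction, the effect here minus that in C3-PMP22 against WT. No gene was called by edgeR's quasi-likelihood test (0% of 15403), 987 genes (6.41%) had an unadjusted p under 0.05, and the smallest adjusted p was 0.70. DESeq2's Wald test called 3. Of the 111 genes, 10 had an unadjusted p under 0.05, among them Sox4 (difference 0.48, SE 0.20) and Nefh (difference -1.07, SE 0.48). Nefh stood at -1.50 here and at -0.43 (SE 0.35) in C3-PMP22 against WT, and Sox4 at 1.14 here and 0.66 (SE 0.15) there, but both differences had an adjusted p of 0.70. The 5 genes with the smallest p in the interaction included Fam110c, Kif7, a kinesin of Hedgehog signalling, Fam241a and Fam189a2, and none of the 5 was among the 111. Fam110c had the widest difference of these named genes, 0.41 (SE 0.45) here and -2.07 (SE 0.47) in C3-PMP22 against WT, an interaction of 2.48 (SE 0.66, adjusted p = 0.70). The interaction of Kif7 was 0.73 (SE 0.19), that of Fam241a 0.77 (SE 0.21) and that of Fam189a2 -0.45 (SE 0.12).

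**Figure D4:**
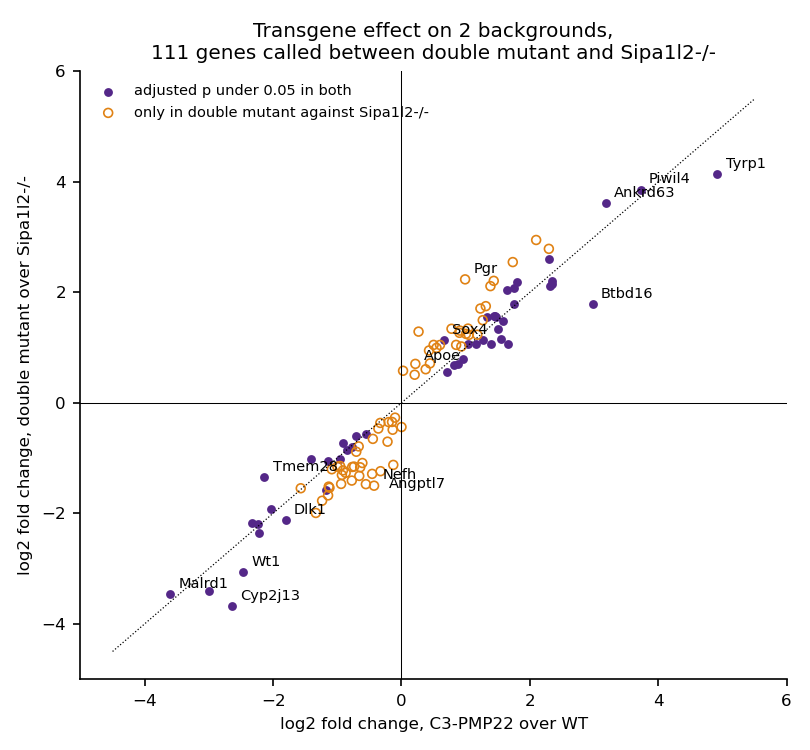
The 111 genes called between double mutant and Sipa1l2-/- nerves, by their log2 fold change of the double mutant over Sipa1l2-/- (vertical axis) and of C3-PMP22 over WT (horizontal axis). Filled points are the 48 genes called in both comparisons, open points the others, and the dotted line marks equal change. Of the 111 points, 110 have the same sign on both axes.

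The double mutant libraries separated by animal-number series, which in this genotype is also sex. Mbp had 1887 to 4460 CPM in the 5 plain-series female double mutants, against 3848 to 7589 CPM in the 7 plain-series Sipa1l2-/- nerves. In the G series Mbp had 6778, 7602 and 8970 CPM in the 3 male double mutants, against 8649 and 9864 CPM in the 2 Sipa1l2-/- nerves. Pmp22 showed the same arrangement, at 831 to 1798 CPM in plain-series double mutants against 2055 to 3710 CPM in plain-series Sipa1l2-/- nerves. In the G series it had 3683, 3849 and 3932 CPM in double mutants against 4792 and 5121 CPM in Sipa1l2-/- nerves. Within the plain series no double mutant value of Pmp22 reached the lowest Sipa1l2-/- value, whereas G-series double mutants stood above most plain-series Sipa1l2-/- nerves.

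Within the plain series (5 against 7, a contrast in a fit on all 32 libraries), 59 genes were called higher (0.383%) and 335 lower (2.17%). Of the 22 genes of the compact myelin list all had values below 0 and 10 were called lower. Among them were Pmp22 at -1.24 (SE 0.25, adjusted p = 0.00716), Mbp at -1.02 (SE 0.26, adjusted p = 0.0275) and Drp2 at -1.45 (SE 0.25, adjusted p = 0.00277). Of 25 cholesterol genes 7 were called lower, including Hsd17b7 at -1.12 (SE 0.21, adjusted p = 0.00456). Of 11 axonal genes 6 were called lower, including Snap25, a protein of synaptic vesicle fusion, at -1.79 (SE 0.35, adjusted p = 0.0058). Among macrophage genes 3 of 24 were called higher, namely Trem2 at 1.39, Cx3cr1 at 1.44 and Ms4a7 at 1.15. Among the genes of 2 lipid steps of myelin, Fa2h, which hydroxylates sphingolipid chains, stood at -1.52 (adjusted p = 0.00628) and Ugt8a, which makes galactosylceramide, at -1.28 (adjusted p = 0.00392).

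Within the G series (3 against 2), 7 genes were called higher (0.0454%) and 6 lower (0.039%), and no compact myelin, cholesterol, axonal or macrophage gene was called. Of the cholesterol genes 24 of 25 were still below 0, with a median of -0.265, and of the axonal genes 10 of 11, with a median of -0.646. Pmp22 stood at -0.39 (SE 0.35, adjusted p = 0.798), and the median of the 22 myelin genes was 0.01. In the same libraries all 15 skeletal muscle genes were above 0, with a median of 6.73, and so were all 13 mitochondrially encoded genes, with a median of 0.94. The muscle sums were 28.87 to 38420 CPM in the 3 double mutants and 27.88 to 795 CPM in the 2 Sipa1l2-/- nerves of the G series. In the plain series the muscle median was -0.78 and the adipocyte median 0.37. The part of muscle and fat content in these values was not tested within a series. Fitted by sex, females (5 against 4) had 54 genes called higher (0.351%) and 356 lower (2.31%), with 10 of 22 myelin genes lower and a list median of -0.92, beside an adipocyte list median of 0.51. Males (3 against 5) had 46 called higher (0.299%) and 6 lower (0.039%), with no myelin gene called and a list median of 0.42, beside an adipocyte list median of -0.97 with all 14 genes below 0. The male double mutants were all of the G series, whereas 4 of the 5 male Sipa1l2-/- nerves were of the plain series. The difference between the sexes in the transgene effect was called for 4 genes (0.026%), none of them of myelin. For this difference, 2826 of the 15403 genes had an unadjusted p under 0.05 by edgeR's quasi-likelihood test. The difference between the series was called for 0 genes, with a smallest adjusted p of 0.809, and 826 genes had an unadjusted p under 0.05. The difference between the sexes had an adjusted p of 0.0965 for Pmp22 and 0.1 for Mbp.

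**Figure D5:**
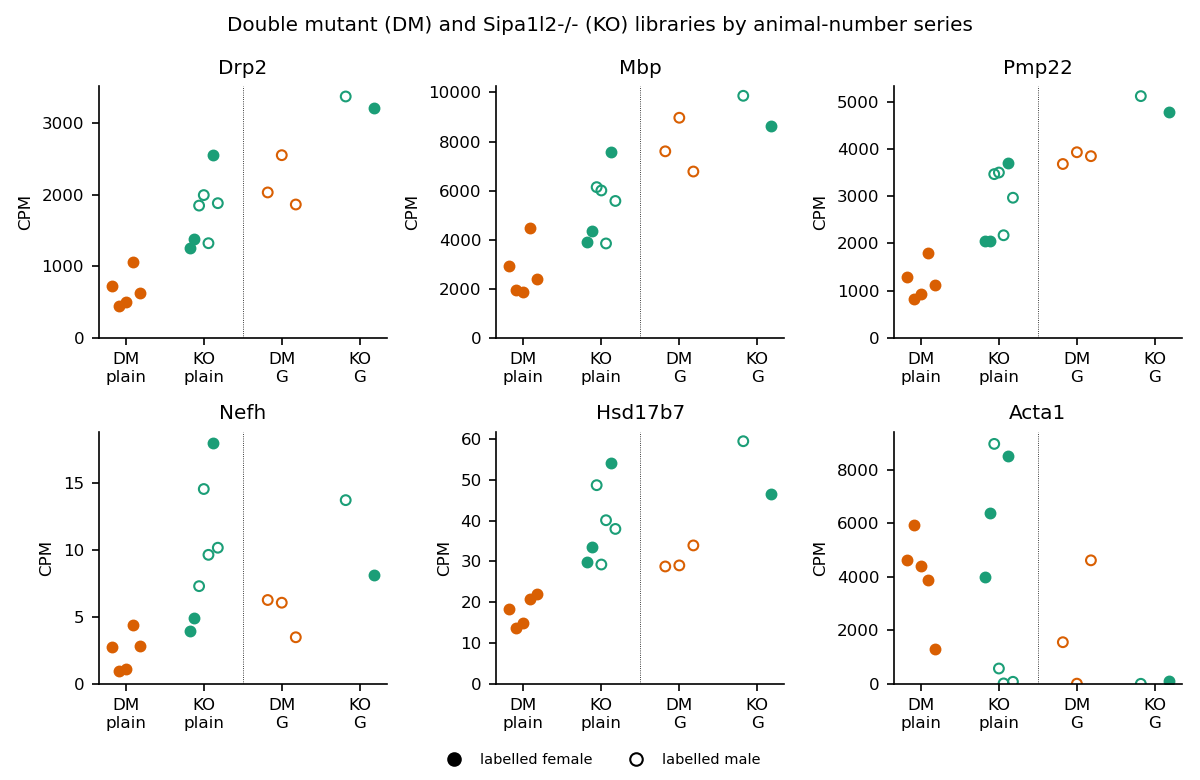
CPM per library (linear axes) of 3 genes of the compact myelin list, a neurofilament, a cholesterol enzyme and a muscle actin, by animal-number series, with double mutants (DM, orange) left of Sipa1l2-/- nerves (KO, green) in each series. Filled points are labelled female and open points male. The lowest values of Drp2, Mbp and Pmp22 are all from plain-series double mutants, and Acta1 spreads widely in each group.

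The 111 genes called over the pooled libraries kept their sign in females, males, plain series and G series alike. Their median sizes there were 1.35, 1.23, 1.30 and 1.39 on the log2 scale. Still called were 71 of them in females, 32 in males, 75 in the plain series and 11 in the G series. These subsets are parts of the libraries that gave the calls, so the kept signs are not independent of the calls. Ankrd63 had log2 fold changes of 3.54 (SE 0.56) in females and 3.67 (SE 0.53) in males. Sox4 stood at 0.91 (SE 0.18) in females and 1.42 (SE 0.19) in males, and Cx3cr1 at 1.57 (SE 0.33) and 1.33 (SE 0.34). Piwil4 stood at 2.34 (SE 0.46) in females and 5.23 (SE 0.47) in males, and Emid1 at 1.25 (SE 0.35) and 3.10 (SE 0.36), differences whose adjusted p was 0.0883 for each. Nefm stood at -1.87 (SE 0.36) in females and -0.66 (SE 0.39, adjusted p = 0.57) in males. Trem2 stood at 1.39 (SE 0.25) in the plain series and 0.43 (SE 0.37, adjusted p = 0.778) in the G series. With the series as a further term in the fit, 58 genes were called higher (0.377%) and 102 lower (0.662%).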

How the data were processed

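Sciatic nerves were profiled by polyA-selected mRNA sequencing, and Trim Galore, FastQC, RSEM and the build GRCm38 (mm10) are named in the submitters' processing notes. The sources used here give no aligner, annotation release or strand setting. The authors deposited expected counts, already rounded to whole numbers and not scaled between libraries. Columns were assigned through the column letter in each sample's description. Genes were kept by edgeR's filterByExpr (minimum count 10, minimum total 15), which left at least 99.7% of counts. After TMM scaling they were modelled in edgeR 4.0.16 (R 4.3.3, limma 3.58.1) by genotype and labelled sex over 32 libraries. Benjamini-Hochberg adjustment ran over all 15403 genes. Gene positions and overlaps come from GENCODE M21. Figures were drawn with matplotlib.

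The samples compared, the gene lists and the tests were chosen with earlier results of these data known. Named were a panel (Pmp22, Sipa1l2, Mbp, Egr2, Sox10, Jun, Ngfr), the 12 called genes of each direction with the largest change among those with a mean of at least 1 CPM, the 6 of each direction with the smallest p, up to 3 called members and the extremes of each list, and the 5 smallest p of a test without calls. Genes named within 1 sex or series, in the comparison of the 2 backgrounds and in the other observations were chosen after their values were seen. Not every gene these rules cover is reported here, and counts include them. Libraries came from separately numbered samples, and p-values refer to the spread between these. The fits treated these samples as independent and held no term for the header number before the hyphen, which most plain-series double mutants shared. No pair of libraries agreed within sampling noise (lowest chi-square per gene 14.8 over 64 pairs). The test was checked on simulated data. DESeq2 1.42.0 and the alternatives in the closing section were run beside it. Terms for the myelin level and the comparison within 1 animal-number series were chosen after seeing the data. Values within 1 sex or series are contrasts in a fit on all 32 libraries and use its shared estimate of the spread. The fit by series also included labelled sex.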

Additional observations from a re-analysis of the deposited data

Results flagged for a closer look

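Among the named genes, 3 of 100 groups of values held a library far from the others on the log2 scale, where chance gives about 1 in 20 groups. Epyc had 8.03 CPM in double mutant library 3, against 17.2 CPM in the next double mutant. Id2 had 15.04 CPM in double mutant library 8, against 20.9 CPM in the next. Rab15 had 1.28 CPM in Sipa1l2-/- library 3, against 2.56 CPM in the next Sipa1l2-/- library. Each of these libraries was the lowest of its group.

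A difference between the sexes in the transgene effect was called for 4 genes, each with an adjusted p of 0.045 by edgeR's quasi-likelihood test. Sex and animal-number series cannot be told apart in the double mutants. Rap1gap, a GTPase-activating protein for Rap, the substrate of the SIPA1 family, averaged 12 ± 2.40 CPM in female double mutants (SD, n = 5) and 15.7 ± 5.17 CPM in female Sipa1l2-/- nerves (SD, n = 4). In males it averaged 56.9 ± 8.57 CPM in double mutants (SD, n = 3) and 16.6 ± 5.76 CPM in Sipa1l2-/- nerves (SD, n = 5), and the effect in females minus that in males was -2.17 on the log2 scale. Etnppl, an enzyme that breaks down phosphoethanolamine, averaged 2.52 ± 1.01 CPM in female double mutants and 50.1 ± 44.6 CPM in female Sipa1l2-/- nerves. In males it averaged 23.9 ± 15.1 CPM in double mutants and 31.5 ± 16.6 CPM in Sipa1l2-/- nerves, a difference of effects of -3.91. For Tlcd2 the means were 12.3 ± 2.51 CPM in female double mutants and 5.22 ± 0.961 CPM in female Sipa1l2-/- nerves, and 3.76 ± 0.603 CPM in male double mutants and 6.64 ± 2.20 CPM in male Sipa1l2-/- nerves, a difference of 2.07. For Trpv2, a cation channel, they were 8.30 ± 1.09 CPM in female double mutants and 6.85 ± 0.939 CPM in female Sipa1l2-/- nerves, and 4.52 ± 0.658 CPM in male double mutants and 10.25 ± 2.61 CPM in male Sipa1l2-/- nerves, a difference of 1.46. The difference between the series had an adjusted p of 0.809 for each of these genes.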

How the results depend on the processing

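The 111 calls kept their sign under all alternatives run, of which a minimum mean of 1 CPM tested only 98 of them, and the number of calls moved as follows. DESeq2's Wald test called 219, the adipocyte level as a term 223 and the myelin level as a term 340. The contrast within females called 410, within males 52, within the plain series 394 and within the G series 13. Size factors of DESeq2, total counts, other low-count filters, no sex term, only the compared groups, robust estimation, the animal-number series or muscle level as a term, and removal of C3-PMP22 libraries 7 and 8 gave 77 to 160 calls. The fewest came when the fit held the compared groups alone, which ended the calls of Pgr, Erc2, Cldn14, Elovl4, Tmem179, Nefh, Stard4, Id2, Cxcl10 and Nefm. With single libraries left out there were 84 (without Sipa1l2-/- library 6) to 141 calls (without Sipa1l2-/- library 5). The interaction was not fitted with the compared groups alone, within a sex or series or with the myelin term, and elsewhere it called 0 genes, also 0 to 0 with single libraries left out, except 3 by DESeq2. No label says that same-numbered libraries pair, and the correlations of their deviations from the group means do not settle it. These ran from -0.03 to 0.57, 5 of 8 were over 0.1 and 2 of 8 libraries correlated best with their own number. The replicate block gave 94 calls, 83 of them among the 111, and 0 for the interaction, and with it Pgr, Cdh6, Elovl4, Nefh and Stard4 were not called. Signs turned for uncalled genes: Sipa1l2 stood at 0.0621 with the block, 0.022 with the muscle term, 0.472 in males, 0.0884 in the G series, 0.195 with the myelin term, and -0.177 to 0.0454 with single libraries left out, above 0 without double mutant library 2, 3 or 5 or Sipa1l2-/- library 8 or 9. Sox10 stood at 0.0356 with the block, 0.46 in males and 0.16 with the myelin term, and Egr2 at 0.45 in males, 0.14 with the myelin term and -0.49 to 0.00196 with single libraries left out, above 0 without Sipa1l2-/- library 8. In males Pmp22 stood at 0.15, Mbp at 0.31 and Jun at -0.00693. The causes were not tested. Depth limits genes under 1 CPM, 13 of the 111.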

Other observations

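Called genes outside the fixed lists were picked after their values were seen. Tyrp1, an enzyme of melanin synthesis, had 0.146 to 3.62 CPM in double mutants and 0 to 0.277 CPM in Sipa1l2-/- nerves (log2 fold change 4.14, SE 0.67), and Tfap2a, a transcription factor of the neural crest, 0.297 to 3.43 CPM in double mutants and 0 to 0.277 CPM in Sipa1l2-/- nerves (2.95, SE 0.55). Edn3, the endothelin ligand of neural crest cells, had a median of 10.2 CPM in double mutants and 4.63 CPM in Sipa1l2-/- nerves (1.02, SE 0.23). S100a4, a calcium-binding protein of fibroblasts and macrophages, had a median of 145 CPM in double mutants and 68.1 CPM in Sipa1l2-/- nerves and rose by 1.06 (SE 0.17). The lipid carrier gene Apoe had 1275 to 1788 CPM in double mutants and 645 to 1335 CPM in Sipa1l2-/- nerves, a rise of 0.70 (SE 0.15, adjusted p = 0.0114). Havcr2, an inhibitory receptor of immune cells, rose by 1.31 (SE 0.28) and Fgl2 by 0.51 (SE 0.12). Ltbp2, which binds elastic fibres, had 16.0 to 30.05 CPM in double mutants and 4.19 to 12.2 CPM in Sipa1l2-/- nerves, with no overlap, and rose by 1.56 (SE 0.24). Cdkn2a, a gene of cell cycle arrest, had a median of 5.47 CPM in double mutants and 2.56 CPM in Sipa1l2-/- nerves (1.05, SE 0.17).

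Among the genes called lower were further neuronal ones, Rph3a of synaptic vesicles at -1.47 (SE 0.35), Nrxn2, a neurexin, at -1.41 (SE 0.23), Dpysl5 at -1.31 (SE 0.29), Cntn1, a contactin, at -1.15 (SE 0.23) and Stmn3 at -1.09 (SE 0.24). Angptl7, a secreted angiopoietin-like protein, had 62.7 to 282 CPM in double mutants, with a median of 165, against 250 to 588 CPM in Sipa1l2-/- nerves, with a median of 369 (-1.24, SE 0.22), and stood at -0.33 (adjusted p = 0.43) in C3-PMP22 against WT. Lox, the lysyl oxidase of collagen cross-links, had a median of 137 CPM in double mutants and 260 CPM in Sipa1l2-/- nerves (-0.79, SE 0.17). Rspo1, a Wnt agonist, had 17.1 to 26.1 CPM in double mutants and 27.3 to 46.7 CPM in Sipa1l2-/- nerves, with no overlap (-0.80, SE 0.13). Etnppl, which had the widest difference of the 4 genes called for a difference between the sexes, was not called over the pooled libraries (-2.06, adjusted p = 0.0895).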
